A study of Mus musculus with 3 samples.

Results

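The genes described here are those of the mouse major histocompatibility complex (MHC) and of the machinery that cuts, carries and loads its peptides. Members were all genes whose GENCODE M21 symbol starts with H2-, which gave 45 genes, and 11 further genes named for their role: B2m, Tap1, Tap2, Tapbp, Psmb8, Psmb9, Psmb10, Erap1, Nlrc5, Ciita and Cd74. Together they are 56 of the 55536 genes in the deposited gene tables, and 45 of them are annotated as protein-coding. On mouse assembly mm10, 50 members lie on chromosome 17, and the others are B2m on chromosome 2, Ciita on 16, Cd74 on 18, Erap1 on 13, and Nlrc5 and Psmb10 on 8.

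The RNA came from primary regulatory T cells (Tregs) of a mouse aged 12 weeks, described by the submitters as activated cells that had been through inflammation. Tregs are the Foxp3-dependent CD4 T cells that hold other lymphocytes in check. Polyadenylated RNA was sequenced in 3 libraries, labelled technical replicates 1 to 3 of 1 biological replicate from 1 donor, so there is 1 group and no untreated or resting control. What caused the inflammation, and the strain, genotype, sorting gate and sex, are not given in the sources used here. All SDs below measure only the spread between these libraries, and all p-values concern only these libraries and not variation between mice.

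MHC class I molecules are carried by nearly all nucleated cells. Their heavy chain pairs with the light chain beta-2-microglobulin (B2m) and shows peptides cut by the proteasome to CD8 T cells, while class II molecules, pairs of an alpha and a beta chain, show peptides from the endosome to CD4 T cells and are carried mainly by B cells, dendritic cells and macrophages. Interferons raise many genes of the class I route, among them those for the immunoproteasome, an inducible form of the proteasome, and mouse T cells carry little or no class II as a rule.

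The promoters of these genes share short elements, and stretches from some class I and class II genes are shown here. The motifs marked in each gene were picked for that gene, so they are not a measured difference between the classes. RefSeq promoters on GRCm38.p6 (250 bases before to 50 after each start site) matched 39 member symbols with 42 promoters. In the class I heavy chain genes H2-K1, H2-Q7 and H2-Q6, the stretch runs from 8 bases before an enhancer A type site for NF-kB (GGGATTCCC) to 8 bases after a Y box (ATTGG), and both motifs are in capitals. In B2m the first capitals mark an interferon response motif (GAAANNGAA) and the second a Y box.
H2-K1, chr17:34000351-34000465, minus strand: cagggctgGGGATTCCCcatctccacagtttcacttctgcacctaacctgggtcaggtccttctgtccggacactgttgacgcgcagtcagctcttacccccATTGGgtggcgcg
H2-Q7, chr17:35439015-35439127, plus strand: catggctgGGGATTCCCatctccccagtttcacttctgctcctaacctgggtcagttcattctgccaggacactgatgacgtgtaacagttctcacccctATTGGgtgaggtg
H2-Q6, chr17:35424670-35424783, plus strand: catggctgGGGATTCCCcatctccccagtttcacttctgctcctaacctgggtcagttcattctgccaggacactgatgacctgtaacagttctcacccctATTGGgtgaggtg
B2m, chr2:122147540-122147646, plus strand: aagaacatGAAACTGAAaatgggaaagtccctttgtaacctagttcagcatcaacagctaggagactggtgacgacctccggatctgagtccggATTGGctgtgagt

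The stretches of H2-Q6 and H2-Q7 differed by 2 edits (single-base changes, insertions or deletions), those of H2-K1 and H2-Q7 by 19, and those of H2-K1 and B2m by 55. In H2-K1 and H2-D1 the starts of the paired motifs lay 94 bases apart, in H2-Q6 93 and in H2-Q7 92. In the class II genes shown next, the paired motifs in capitals are the core of the X box (AGNAAC) and the Y box. These elements are bound in general by the RFX and NF-Y factors on which Ciita, the class II transactivator, assembles. The pair was not found throughout class II: the promoters of H2-Aa and H2-DMb2 held a Y box but no AGNAAC match. On either strand, AGNAAC was also matched in the promoters of B2m, H2-K1, H2-T22 and H2-T23, but not in those of H2-D1, H2-Q6 and H2-Q7.
H2-Eb1, chr17:34305767-34305820, plus strand: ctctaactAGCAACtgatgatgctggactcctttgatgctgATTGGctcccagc
H2-Eb2, chr17:34325534-34325587, plus strand: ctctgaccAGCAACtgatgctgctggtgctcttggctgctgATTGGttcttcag
H2-Ob, chr17:34238809-34238860, plus strand: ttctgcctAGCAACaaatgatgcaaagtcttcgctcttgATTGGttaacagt

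The spacing of X box core to Y box was 33 bases between motif starts in H2-Eb1 and H2-Eb2, 31 in H2-Ob, and 34 in H2-Oa and H2-DMb1. H2-Eb1 and H2-Eb2 differed by 12 edits over stretches of 54 bases, and their levels differed widely: H2-Eb1 stood at 16.4, 13.2 and 22.2 TPM (a length-corrected abundance scaled to a fixed sum per library) in libraries 1 to 3, and H2-Eb2 at 0.330, 0.320 and 0.350. Each motif was searched on both strands. GGGATTCCC was found in 5 of the 42 member promoters (11.9%, those of H2-K1, H2-D1, H2-Q6 and H2-Q7) against 0.353% of all 32851 promoters, and ATTGG in 35 (83.3%) against 37.4%. AGNAAC was found in 24 (57.1%) against 48.1%, TGACG, the core of the CRE-like X2 box, in 16 (38.1%) against 20.8%, and GAAANNGAA in 4 (9.52%) against 8.56%. Member promoters are near copies of each other, so these shares are not independent counts, and a match is no evidence of binding.

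Class I transcripts were far more abundant than class II transcripts in every library. The sum of the classical class I genes H2-K1 and H2-D1 was 17389, 16539 and 15549 TPM in libraries 1 to 3 (16492 ± 921, SD, n = 3). The 27 nonclassical class I genes summed to 5577, 4799 and 4519 TPM (4965 ± 548), and the 10 class II genes to 241, 274 and 276 TPM (264 ± 19.7). Classical class I therefore stood 3.12, 3.45 and 3.44 times as high as nonclassical class I, and 72.2, 60.3 and 56.4 times as high as class II, while nonclassical class I stood 23.2, 17.5 and 16.4 times as high as class II. The order of the classes was the same in all 3 libraries and their ranges did not overlap. All 56 members made up 3.54%, 3.28% and 3.07% of TPM, and 35 of them were detected, meaning a TPM of at least 1 in every library, as were 12883 of all genes.

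**Figure D1:**
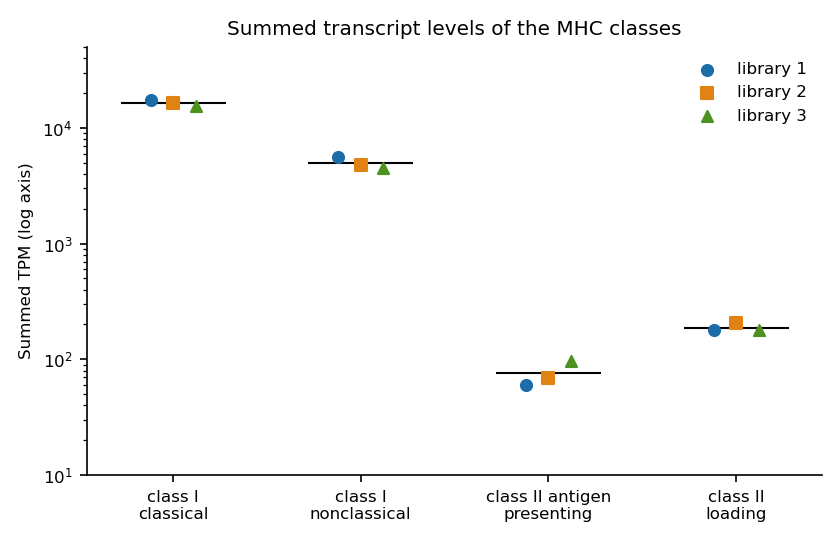
Summed TPM (log axis) of classical class I, nonclassical class I, class II antigen presenting and class II loading genes, with 1 point per library and a bar at the mean. Classical class I sits near 16492 TPM and class II antigen presenting genes near 75.6 TPM, with library 3 the highest for the latter.

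TPM values share a total, and library 3 held salivary secretory transcripts (Bpifa2, Smr3a, Amy1, Chia1, Pip and Car6) at a summed 56788 TPM against 4.91 and 11.0 in libraries 1 and 2. With those genes left out of the total, classical class I stood at 17389, 16539 and 16486 TPM, nonclassical class I at 5577, 4799 and 4791, and class II at 241, 274 and 292. The gap between libraries 2 and 3 for class I was thus smaller on that scale, and the gap for class II was larger. The libraries held 31611422 to 37728241 expected counts on genes, and all 7 T cell and Treg markers checked (Cd3e, Cd3d, Cd4, Trac, Foxp3, Il2ra, Ctla4) were detected, Foxp3 at 98.1, 98.4 and 96.5 TPM.

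Among the classical heavy chains, H2-K1 (17:33996017-34000347, minus strand) was the higher, at 11788, 11223 and 10599 TPM. H2-D1 (17:35262730-35267499, plus strand) stood at 5601, 5316 and 4950 TPM. B2m (2:122147686-122153083, plus strand), the light chain that every class I heavy chain needs to fold and reach the surface, lay between them at 7921, 7162 and 6457 TPM. By mean TPM these genes ranked 3rd (H2-K1), 4th (B2m) and 8th (H2-D1) of 55536, and by TPM each was highest in library 1 and lowest in library 3. By TMM-scaled counts the lowest library was library 2 for H2-K1 and H2-D1 and library 3 for B2m.

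On the log2(TPM + 1) scale H2-K1 exceeded H2-D1 by 1.08 ± 0.01 and B2m by 0.65 ± 0.07, and H2-D1 lay below B2m, at a difference of -0.44 ± 0.06. Each difference had the same sign in 3 of 3 libraries, with ranges and the authors' TPM bounds that did not overlap, and an exact sign-flip p of 0.25, the smallest that 3 libraries allow. The lead of H2-K1 depended on the length correction. Expected counts, which are not divided by length, were 231191, 189740 and 224199 for H2-K1 against 215076, 179240 and 208082 for H2-D1, and the difference was 0.10 on that scale. The order of H2-D1 and B2m turned there, to 0.66, and in M4 counts, a second deposited table, to 0.27. Counting only transcripts annotated as protein-coding, H2-K1 stood at 6056, 5599 and 5109 TPM and H2-D1 at 5418, 5162 and 4782, both below B2m. Summed over both classes, class I heavy chains stood 2.90, 2.98 and 3.11 times as high as B2m, and the classical genes made up 76.9% of that heavy chain sum.

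Of the 27 nonclassical class I genes, 13 were detected and the Q genes led. H2-Q7 (17:35439155-35443773), which like H2-Q6 codes for the Qa-2 antigen, stood at 2507, 2135 and 2016 TPM. H2-Q6 stood at 928, 810 and 735 TPM, and H2-Q5, annotated as a polymorphic pseudogene, at 753, 661 and 608 TPM. H2-Q5, H2-Q6 and H2-Q7 together made up 74.9% ± 0.449 of the nonclassical sum. The ratio of H2-Q7 to H2-Q6 was steady, at 2.70, 2.64 and 2.74.

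H2-T23, which codes for Qa-1, the ligand of CD94/NKG2 receptors, stood at 727, 639 and 639 TPM. It lay below H2-Q7 by a log2 difference of -1.73 ± 0.06, with the same sign in 3 of 3 libraries and an exact p of 0.25; in M4 counts the difference turned to 0.87. H2-T22, a ligand of some gamma delta T cells, stood at 217, 182 and 163 TPM, and H2-M3, which presents N-formylated peptides, at 140, 101 and 95.3 TPM. By TPM both were highest in library 1 and lowest in library 3; by TMM-scaled counts H2-M3 was lowest in library 2. H2-K2, annotated as a pseudogene, stood at 156, 139 and 122 TPM, and H2-T10, the close relative of H2-T22, at 37.0, 36.0 and 40.9 TPM.

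The remaining detected nonclassical genes were lower. H2-Q4 stood at 44.1, 34.0 and 38.7 TPM, H2-Q10, known as a liver gene for a secreted heavy chain, at 28.2, 25.4 and 25.7 TPM, and H2-T24 at 19.5, 21.1 and 18.0 TPM. H2-Q2 stood at 13.6, 11.7 and 13.0 TPM and H2-Bl at 3.10, 2.19 and 1.97 TPM. H2-Q1 and H2-T3, the gene of the thymus leukemia antigen, had mean levels of 0.563 and 0.553 TPM. The M10 genes, known for expression in the vomeronasal organ, were at or near 0: H2-M10.1, H2-M10.3, H2-M10.4 and H2-M10.6 had no count in any library, nor had H2-M1 or the pseudogene H2-M10.5-ps1. A count of 0 allows up to 3 counts in a library, for counting error only.

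**Figure D2:**
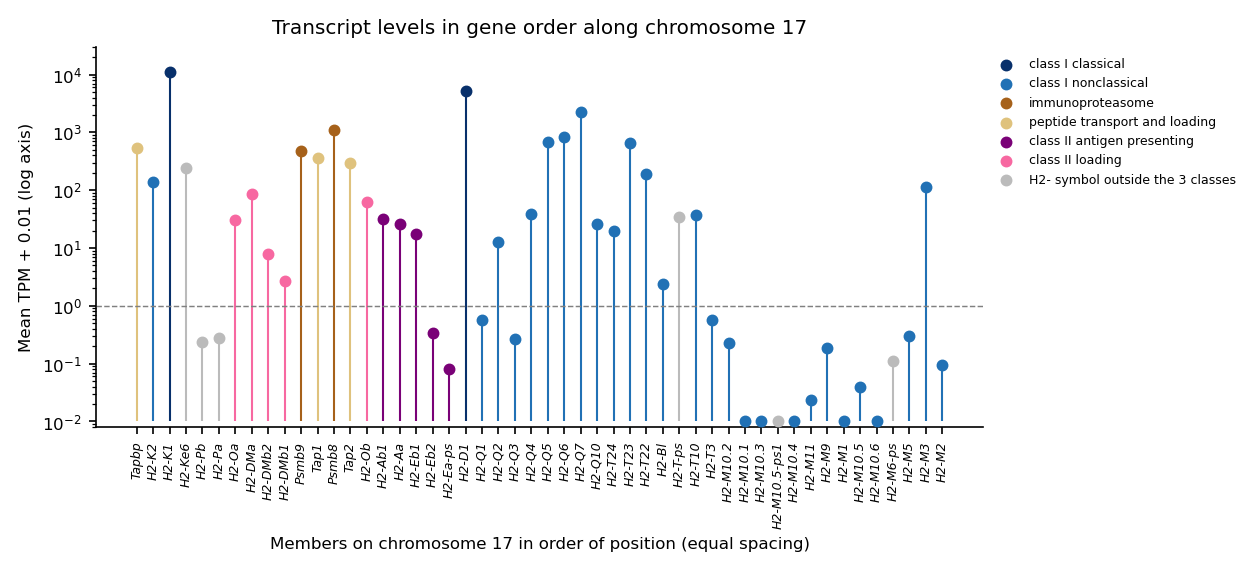
Mean TPM plus 0.01 (log axis) of the members on chromosome 17, equally spaced in order of position and coloured by role. H2-K1 (11203 TPM) and H2-D1 (5289 TPM) stand far apart in the order, with the class II genes between them. The M genes, most of them at or near 0 apart from H2-M3, lie at the far end.

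Class I genes are near copies, so the share of each gene's sequence that a read could not tell from another gene was measured. It was taken as the 50-base windows of a gene's M21 transcripts that also occur in another gene, not weighted by level. H2-T22 shared 53.5% of its windows, mostly with H2-T10 and the overlapping gene A930015D03Rik, and H2-T10 shared 50.4%. H2-Q5 shared 36.4% of its windows, with 25.5% of all its windows found in H2-Q7, H2-Q6 shared 35.0%, H2-Q7 26.5%, H2-Q10 19.1%, H2-D1 12.8% and H2-K1 9.63%. B2m, H2-Ab1, H2-Eb1, H2-Ob, Cd74 and Psmb10 were among the 11 members that shared none, and 27 members shared under 5%. The levels of genes with large shared parts, such as H2-T22, H2-T10, H2-Q5 and H2-Q6, are therefore less certain than those of B2m or H2-Ab1. H2-Ke6, an H2- symbol for a 17-beta-hydroxysteroid dehydrogenase (Hsd17b8) and no MHC chain, shared 70.5% of its windows with Gm20427 and stood at 232, 267 and 239 TPM.

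H2-Q10 stood out in the table of whole-number gene counts against annotation M4. Its M4 count averaged 76.3 against an expected count of 2415, or 3.16 per 100 expected. The 1498 genes of like expected count had a median of 43.5 per 100, and 40 of them lay lower than H2-Q10. H2-Q4, at a like level, had 40.8 per 100 with a median of 45.3 for its own neighbours in count. Of the H2-Q10 level, 96.4% ± 2.53 sat on a retained-intron transcript of 4328 bases, and 3.65% on coding transcripts (mean 0.947 TPM). H2-Q10 shared 14.0% of its windows with H2-Q7; whether its reads came from H2-Q7 was not tested. H2-K1 and B2m had 1.13 and 0.691 M4 counts per 100 expected, but there the M4 counts level off at high expression (877 for B2m in each library).

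The immunoproteasome genes were all high. Psmb8, which codes for the inducible chymotrypsin-like subunit, stood at 1110.2, 1133 and 1022 TPM. Psmb9 stood at 539, 476 and 438 TPM and Psmb10 at 369, 352 and 353 TPM. Each replaces a constitutive catalytic subunit, and the sum of these genes was 3.75, 3.76 and 3.43 times that of the constitutive genes Psmb5, Psmb6 and Psmb7. The excess was uneven: Psmb8 was 6.35 ± 0.385 times Psmb5, Psmb10 4.25 ± 0.340 times Psmb7, and Psmb9 1.77 ± 0.193 times Psmb6.

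The log2 differences were 2.66 ± 0.09, 2.07 ± 0.11 and 0.82 ± 0.15, each of 1 sign in 3 of 3 libraries, with an exact p of 0.25. Counting coding transcripts alone, Psmb8 stayed above Psmb5 (604, 625 and 551 against 179, 167 and 168 TPM). On that scale Psmb10 stood at 72.1, 68.0 and 71.1 TPM against 86.0, 75.3 and 88.6 for Psmb7. Psmb9 likewise stood at 219, 190.0 and 169 TPM against 237, 245 and 235 for Psmb6. The order of Psmb9 and Psmb10 relative to their constitutive counterparts was thus the opposite for coding transcripts. The division of a gene's level between its transcripts is an estimate, and its error is not given here. Transcripts annotated as coding include short ones, such as a Psmb9 form of 433 bases.

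Of the peptide transport and loading genes, Tapbp, which codes for tapasin, the chaperone that bridges class I to the transporter, was the highest at 521, 554 and 523 TPM. Tap1 and Tap2, the chains of the peptide transporter of the endoplasmic reticulum, stood at 420, 337 and 346 TPM and at 301, 287 and 281 TPM. Tap1 exceeded Tap2 by 0.34 ± 0.13 on the log2 scale in 3 of 3 libraries (exact p 0.25), a ratio of 1.39, 1.17 and 1.23. On coding transcripts alone the log2 difference was 3.91. Erap1, an aminopeptidase that trims peptides to length, was lower at 85.1, 94.3 and 110 TPM, and it was highest in library 3.

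**Figure D3:**
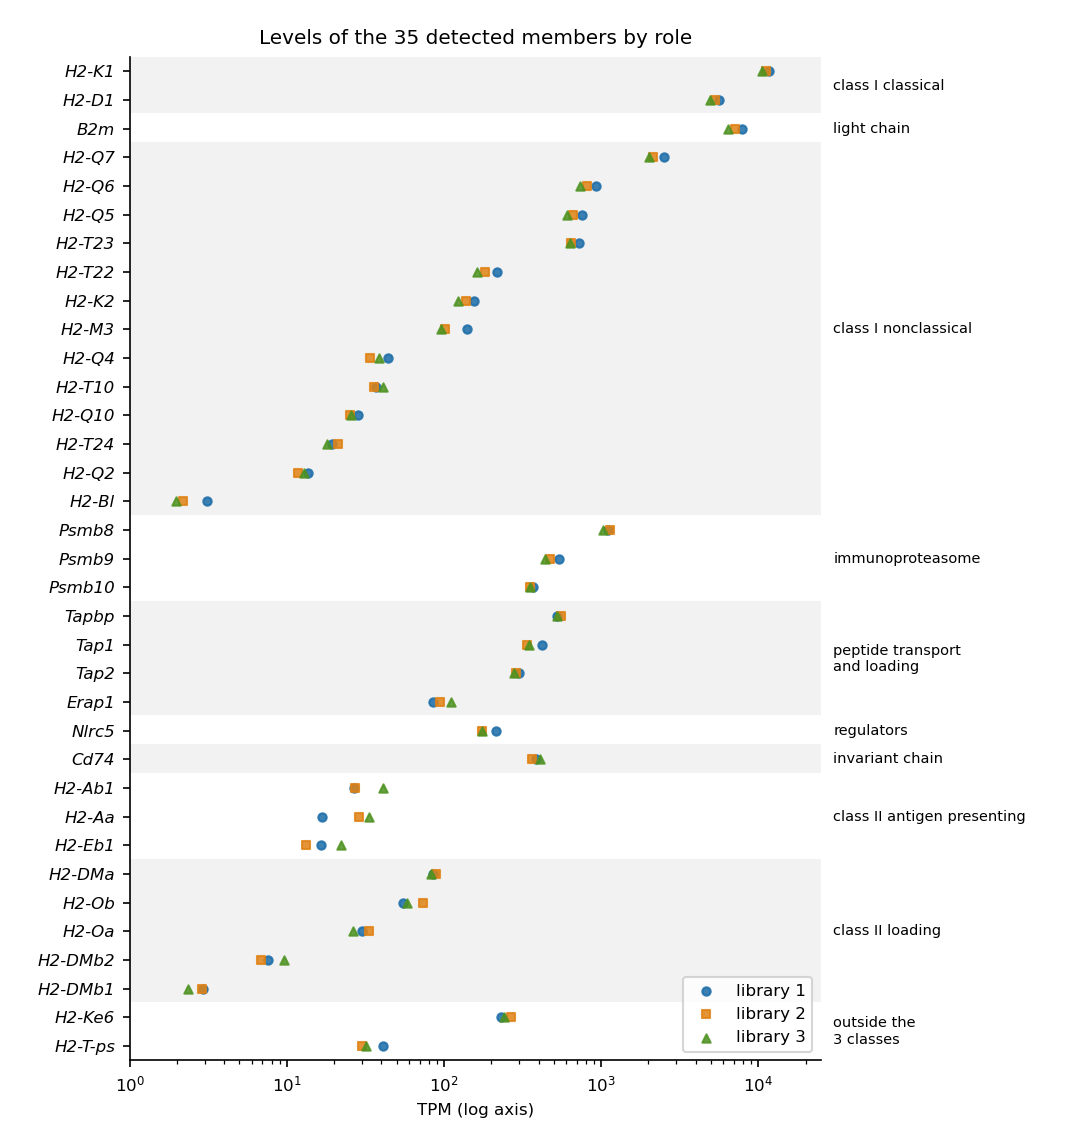
TPM (log axis) of the 35 detected members in each of the 3 libraries, grouped by role. Most members vary little between libraries beside a span from H2-K1 (11203 TPM on average) to H2-Bl (2.42 TPM).

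The transactivators of the classes differed widely. Nlrc5, the transactivator of class I genes, stood at 215, 175 and 174 TPM, and Ciita at 2.23, 0.680 and 0.720 TPM. Nlrc5 was 96.2, 258 and 242 times as high as Ciita, a log2(TPM + 1) difference of 6.48 ± 0.37 in 3 of 3 libraries (exact p 0.25). Library 1 was the highest for both genes, and for Ciita it stood apart from the others.

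Class II transcripts were low but measurable. Of the antigen presenting chains, H2-Ab1 (17:34257689-34269419), the beta chain of I-A, stood at 26.8, 27.0 and 41.1 TPM. H2-Aa (17:34282744-34287823), its alpha chain, stood at 16.7, 28.7 and 33.4 TPM. The chains of I-A could not be told apart in level, at a log2 difference of H2-Aa minus H2-Ab1 of -0.29 ± 0.37 (exact p 0.5), the only one of the 13 pairs examined that was not apart. H2-Ab1 exceeded H2-Eb1, the beta chain of I-E, by 0.84 ± 0.15 in 3 of 3 libraries (exact p 0.25), and by 3.04 on coding transcripts alone. The I-E alpha chain H2-Ea-ps, a polymorphic pseudogene, had 2, 0 and 1 expected counts.

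Antigen presenting class II genes summed to 60.3, 69.3 and 97.2 TPM, with library 3 the highest. Without library 3 their mean was 64.8 ± 6.31 TPM over 2 libraries, against 75.6 ± 19.2 over 3. The class II loading genes summed to 181, 205 and 179 TPM and were thus more abundant than the antigen presenting chains themselves. H2-DMa, the alpha chain of the peptide exchange factor H2-DM, led them at 85.1, 88.7 and 82.5 TPM, while its beta chains were low, H2-DMb2 at 7.61, 6.81 and 9.65 TPM and H2-DMb1 at 2.95, 2.87 and 2.36 TPM. H2-DMa exceeded H2-DMb1 by 4.54 ± 0.09 on the log2 scale in 3 of 3 libraries (exact p 0.25). The beta genes shared windows with each other, 22.7% of H2-DMb1 and 21.2% of H2-DMb2. H2-Ob and H2-Oa, the chains of H2-O, which restrains H2-DM, stood at 54.5, 73.3 and 57.9 TPM and at 30.3, 33.2 and 26.3 TPM. By gene TPM H2-Ob was higher than H2-Oa in every library. On coding transcripts alone the gap was smaller, at means of 30.0 TPM for H2-Ob and 26.8 TPM for H2-Oa.

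Cd74, the invariant chain that fills the class II groove before peptide loading, was far above the chains it guards. It stood at 388, 363 and 407 TPM, which is 14.5, 13.5 and 9.89 times H2-Ab1 and 6.42, 5.24 and 4.19 times the sum of all antigen presenting class II genes. The log2 difference of Cd74 to H2-Ab1 was 3.59 ± 0.28 in 3 of 3 libraries (exact p 0.25).

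Class II genes and Cd74 are typical of antigen presenting cells, whose markers were therefore read beside them. Of 10 B cell markers 6 were detected and none was at 0 in all libraries; their sum was 79.1, 75.2 and 74.0 TPM, with Cd79b at 30.8, 31.7 and 28.8 TPM. Of 8 dendritic cell markers only Zbtb46 was detected, Cd209a was at 0, and the sum was 8.47, 5.45 and 2.76 TPM. Of 8 monocyte and macrophage markers only Cd68 was detected, Cd14 and Fcgr1 were at 0, and the sum was 4.14, 2.59 and 4.46 TPM. Of 5 epithelial markers only Epcam was detected, and the sum was 36.2, 26.8 and 44.6 TPM. The antigen presenting class II sum was highest in library 3, where the B cell and dendritic cell sums were lowest and the macrophage, epithelial and salivary sums highest; the part of any of these cells in the class II level was not tested. In a bulk sample, fewer cells with a transcript and less of it per cell cannot be told apart.

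By the estimated division of each gene's level between its transcripts, gene totals and coding levels can be far apart. Of 32 members with a mean TPM of at least 10, 29 have a coding transcript, 12 had at least 90% of their level on coding transcripts and 12 had under 50%. H2-K1 had 49.8% ± 1.58 on coding transcripts, and its leading transcript was a retained-intron form of 457 bases with 26.5%. H2-D1 by contrast had 96.8%, with 81.1% on a coding transcript of 2102 bases. B2m, H2-Q6, H2-M3, H2-T24 and H2-Q2 have only coding transcripts in the annotation, so their share of 100% was fixed by it. They are among the 12 members with at least 90%. H2-Q7 had 60.5%.

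In the processing machinery the coding share was 54.5% for Psmb8, 39.7% for Psmb9 and 19.7% for Psmb10. It was 77.0% for Tap1 but 6.17% ± 0.413 for Tap2, whose retained-intron transcript of 2561 bases took 93.6%. Coding transcripts of Tap1 stood at 320, 255 and 275 TPM, and those of Tap2 at 19.0, 16.4 and 18.3 TPM. Nlrc5 had 49.3%. Of the class II chains, H2-Aa had 97.4%, H2-Ab1 96.5%, H2-DMa 97.3% and Cd74 99.4% on coding transcripts, whereas H2-Eb1 had 17.0% ± 8.34, with 53.7% on a transcript of 1082 bases annotated for nonsense-mediated decay. H2-Eb1 coding transcripts stood at 3.02, 1.06 and 5.45 TPM.

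**Figure D4:**
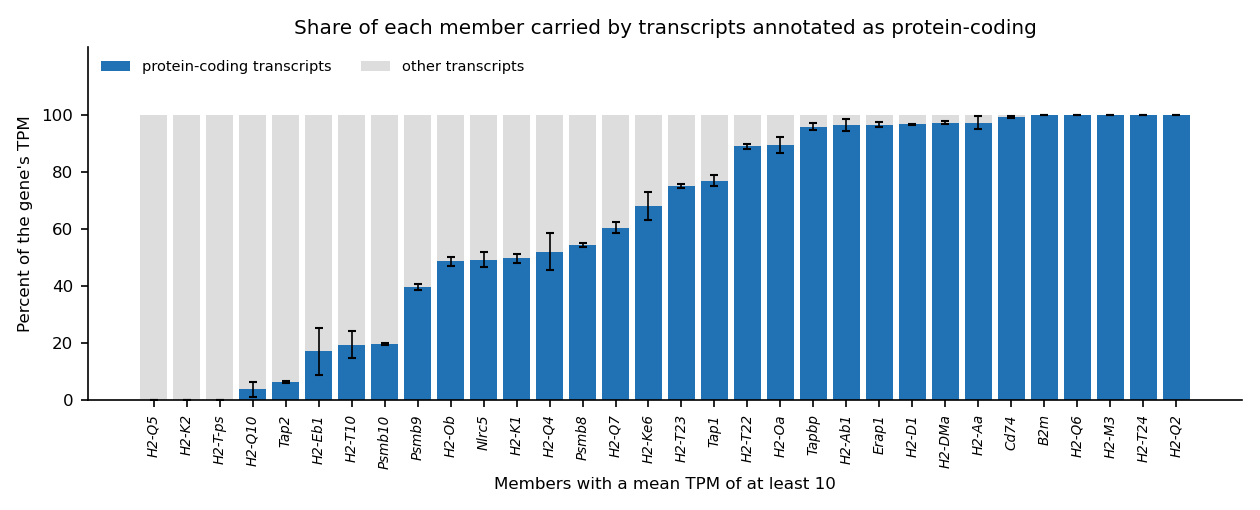
Percent of each gene's TPM on transcripts annotated as protein-coding (blue, mean with SD over 3 libraries) and on all others (grey), for the 32 members with a mean TPM of at least 10. B2m and H2-Q6, which have only coding transcripts in the annotation, stand at 100% and Tap2 at 6.17%.

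The libraries differed in member levels by more than counting noise, as they did for most genes. Each gene with a mean expected count of at least 10 was compared across libraries by a chi-square test against Poisson noise after TMM scaling, with Benjamini-Hochberg adjustment over all genes tested. Of 39 members tested, 32 passed an adjusted p of 0.05, beside 77.2% of all 18253 genes tested. When the highest library also had to exceed the lowest by a ratio of 1.5 or more, 6 members passed, beside 36.5% of all genes. The median ratio was 1.18 over the members and 1.37 over all genes tested; among genes averaging 100 TPM or more it was 1.10, and 48 of 1984 passed the call with the ratio.

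The members with the larger ratios were mostly class II genes. H2-Aa had scaled counts of 372, 653 and 822, a ratio of 2.21 (chi-square adjusted p 1.79e-37). H2-Eb1 had a ratio of 2.00 (adjusted p 1.90e-22), H2-Ab1 of 1.63 (adjusted p 2.35e-30) and H2-DMb2 of 1.52 (adjusted p 7.51e-06), all highest in library 3. Ciita had a ratio of 2.97 (adjusted p 6.86e-26) and was highest in library 1 and lowest in library 2. H2-T3 had a ratio of 6.04 (adjusted p 0.00598) on expected counts of 18.6, 3.14 and 20.6. Without library 3, Ciita (2.97), H2-Aa (1.75) and H2-T3 (5.47) passed, and without library 2, Ciita, H2-Aa, H2-Eb1 and H2-Ab1 did. Without library 1, H2-DMb2, H2-T3, H2-Eb1, H2-Ab1 and H2-Q1 passed.

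The direction of these differences was also read by class. Of 17 class I genes tested, 12 were highest in library 1 by TMM-scaled counts and none was lowest there. H2-T24, H2-Q2, H2-Bl and H2-Q1 are among the 17 but did not pass the chi-square test. Of all genes tested, 31.8% were highest in library 1, 37.3% in library 2 and 30.9% in library 3. Of the same 18253 genes, 6126 were lowest in library 1. Of the 1984 genes averaging 100 TPM or more, 457 were highest in library 1, 937 in library 2 and 590 in library 3. Scaled to total counts 13 of the 17 class I genes were highest in library 1, beside 39.4% of all genes, and by TPM 14, beside 41.4%. Class I genes share sequence, and a model divides reads between them, so these are not independent counts. The differences were small: H2-K1 and H2-D1 had ratios of 1.05 and 1.04, H2-Q7 of 1.19, H2-T22 of 1.22 and H2-M3, with the largest among class I genes averaging 10 TPM or more, of 1.36. All 4 antigen presenting class II genes tested were highest in library 3 under each of 4 scalings (TMM, DESeq2 size factors, total counts and TPM), though H2-Eb2 did not pass the test (adjusted p 0.842). The 5 class II loading genes did not share a direction. Under each of the 4 scalings H2-DMa, H2-Ob and H2-Oa were highest in library 2, H2-DMb1 in library 1 and H2-DMb2 in library 3. Of these, H2-DMa (chi-square adjusted p 0.0777) and H2-DMb1 (chi-square adjusted p 0.320) did not pass the test. Psmb8, Psmb9 and Psmb10 had ratios of 1.03, 1.14 and 1.07 and were each highest in a different library by TMM, but all highest in library 1 by total counts.

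**Figure D5:**
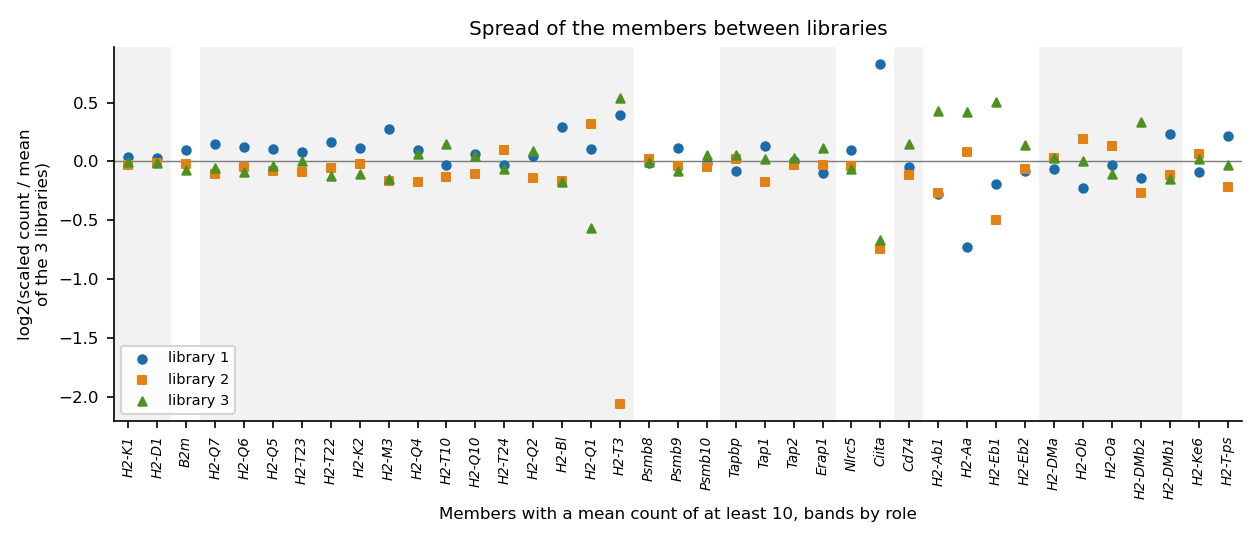
log2 of the TMM-scaled count of each library over the mean of the 3, for the 39 members with a mean count of at least 10, in bands by role. H2-Aa, H2-Ab1 and H2-Eb1 lie highest in library 3 and Ciita highest in library 1, while H2-K1, H2-D1 and Psmb8 lie close to 0.

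Genes of the wider pathway were expressed across the class I route. The counts of list genes that differed between libraries stand beside the same 77.2% of all genes called and 36.5% past the ratio. All 9 constitutive proteasome and activator genes listed were detected, with 8 of 9 called between libraries and 0 with a ratio of at least 1.5. Psme1 and Psme2, the interferon-inducible chains of the PA28 activator, led at 1021, 946 and 933 TPM and 710.2, 637 and 688 TPM, and Psma7 and Psmb6 averaged 372 and 273 TPM. Psmb7 averaged 84.6 TPM and Psme4, which codes for the activator PA200, 14.5 TPM. All 9 genes listed under loading and trimming were detected, with 7 called and 0 past the ratio. The endoplasmic reticulum chaperones Pdia3, Hspa5, Calr and Canx averaged 616, 442, 413 and 149 TPM, and the peptidases Lnpep and Thop1 34.4 and 7.23 TPM.

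All 12 class I regulators were detected, with 11 called and 1 past the ratio. Irf1, an activator of class I promoters, stood at 346, 356 and 332 TPM. Ifngr1, the ligand-binding chain of the interferon gamma receptor, stood at 522, 360 and 294 TPM, and Ifngr2, its signalling chain, at 26.5, 35.9 and 32.5 TPM. Irf3 averaged 199 TPM and Irf8 45.2 TPM.

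All 7 class II regulators were detected, with 7 called and 0 past the ratio. The RFX and NF-Y subunits and CREB spanned a wide range, beside a mean of 1.21 TPM for Ciita. Rfxap averaged 82.6 TPM, Nfyc 73.6, Nfyb 70.7, Creb1 57.0 and Rfx5 23.2, and Nfya was low at 4.06. Of 9 genes of the class II route 7 were detected, 7 were called and 2 passed the ratio. The endosomal proteases Ctsb, Ctss and Ctsd averaged 408, 365 and 307 TPM and Cd83, which holds class II at the surface, 242 TPM, while March8 and March1, ubiquitin ligases of class II and other surface proteins, averaged 0.633 and 0.600 TPM.

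Of 11 class I-like genes encoded outside the MHC 4 were detected, 5 of 6 tested were called and 3 passed the ratio. Cd1d1, which presents lipids to natural killer T cells, led at 143, 146 and 103 TPM and was lowest in library 3. Mr1, which presents vitamin B metabolites, averaged 17.9 TPM, Cd1d2 9.83 and Ulbp1 4.51, and Procr and Mill1 were lowest at 0.0600 and 0.0133 TPM.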

How the data were processed

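Deposited tables were used as the authors made them. Per the file headers, the gene tables against GENCODE M21 hold expected counts (read numbers that a model divides between genes) and TPM with posterior means and bounds whose level is not stated, and the deposited transcript tables hold the percent of each gene's TPM per transcript. Whole-number gene counts against annotation M4 were also deposited. The effective length is 49 bases below the length, read here as 50-base reads. The assembly is mm10, per the labels, and the aligner and quantifier are not given in the sources used here. Rows that name no gene (transfer RNAs, spike-ins) took 0.170% to 0.218% of expected counts and stayed out of library sizes and tests.

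Members, lists, pairs and tests were chosen with earlier results of these data known. Libraries were scaled from rounded expected counts with TMM of edgeR 4.0.16 in R 4.3.3, and the chi-square test took genes averaging 10 counts or more. With 1 group, no quasi-likelihood contrast could be made. DESeq2 1.42.0 gave size factors only. Pairs were compared as log2(TPM + 1) by an exact permutation test that flips signs over libraries (two-sided). A pair was called apart where the sign was the same in all libraries and neither ranges nor the authors' bounds overlapped; those bounds belong to the posterior mean, and 22 members had a TPM above their own upper bound in all libraries. All members may be named, with values for those whose mean TPM is at least 1 and counts for the rest; H2-Q1, H2-T3 and H2-Eb2 are given with values although they lie below it. Of each other pathway list the 4 highest and 2 lowest genes are named, with any marker and the leading transcripts; some genes that this rule covers are left out of the text. Alternatives were posterior mean TPM, M4 counts, other pseudocounts, filters and scalings, no length correction, coding transcripts only, and each library left out. The chi-square step was tested on simulated data. Further software was Python 3.11.15 with scipy 1.17.1, pandas 2.3.3 and numpy 2.4.6.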

Additional observations from a re-analysis of the deposited data

How the results depend on the processing

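Posterior mean TPM lowered the classical class I sum to 15372. Counting coding transcripts only, an alternative chosen after seeing the data, gave class sums of 10709 (classical), 3009 (nonclassical) and 209 TPM (class II) and log2 ratios of 1.83 (classical to nonclassical), 5.68 (classical to class II) and 3.85 (nonclassical to class II). On that scale H2-K1 minus H2-D1 was 0.12, and the sign turned for H2-K1 minus B2m (-0.36), Psmb9 minus Psmb6 (-0.32) and Psmb10 minus Psmb7 (-0.24). Without length correction H2-K1 minus H2-D1 was 0.10 and H2-D1 minus B2m turned to 0.66. Length- and depth-scaled M4 counts, which level off at high expression, gave sums of 901, 1495 and 620 for classical, nonclassical and class II and log2 ratios of -0.73 (classical to nonclassical), 0.54 (classical to class II) and 1.28 (nonclassical to class II). In M4 counts the sign also turned for H2-D1 minus B2m (0.27), H2-T23 minus H2-Q7 (0.87) and Psmb9 minus Psmb6 (-0.11), and 16 of 35 members tested differed between libraries, beside 52.2% of all genes. The causes were not tested. Other pairs kept their call but moved by over 1.5 times: on coding transcripts Tap1 minus Tap2 (3.91), H2-Ab1 minus H2-Eb1 (3.04), H2-DMa minus H2-DMb1 (5.35), Psmb8 minus Psmb5 (1.78) and Nlrc5 minus Ciita (5.63), in M4 counts H2-K1 minus B2m (1.35), Cd74 minus H2-Ab1 (1.63), Psmb8 minus Psmb5 (1.63) and Nlrc5 minus Ciita (7.38), with a pseudocount of 0.1 Nlrc5 minus Ciita (7.36), and without length correction Psmb10 minus Psmb7 (1.44). Each class sum or ratio was read under each alternative. Of these combinations, 35 stayed within the spread, 12 moved and 1 turned. Of the combinations of a pair and an alternative, 95 kept the call, 2 lost it and 7 turned.

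With each library left out in turn, 26 to 27 of 39 members differed between libraries, beside 49.1% to 60.9% of all genes, and 3 to 5 with a ratio of at least 1.5: 3 without library 3, beside 26.8% of all genes, and 5 without library 1, beside 24.9%. The number detected stayed at 35. No paired analysis was possible because all libraries form 1 group, so no samples of different groups could be matched; the gene pairs are differences within a library. Depth limits members under 1 TPM, of which 6 had no count, and shared sequence limits genes such as H2-T22, H2-T10 and H2-Q5.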
